A study of Mus musculus with 20 samples.

Results

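The sites described here are 431 stretches of the mouse genome where an antibody against SOCS1 gave a peak after 30 min of lipopolysaccharide (LPS, a bacterial cell wall component that activates TLR4) and where no peak for p65 overlapped. They were taken from the 19631 SOCS1 peaks of wild-type macrophages after 30 min of LPS. A peak was kept if it overlapped by at least 1 bp a SOCS1 peak of the KO LPS 30 min list or the WT LPS 8 h list, no SOCS1 peak of either untreated (control) list, and no peak of any of the 6 p65 lists. The first 2 conditions left 4349 LPS-gained sites (22.2% of the list), and the last left 431, which is 9.91% of the gained sites, 2.20% of the list and a small part of the 258959 peaks of the 12 lists. The sites were thus selected on measured values, namely the SOCS1 calls at WT 30 min, KO 30 min, WT 8 h and both controls, and all p65 calls. The SOCS1 KO LPS 8 h list, genome position, promoter sequence and gene annotation played no part in the choice.

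The study mapped p65 and SOCS1 by CUT&RUN, in which an antibody tethers a nuclease that cuts out the DNA beside its target. The cells were bone marrow-derived macrophages grown with MCSF, either wild type (WT, given in the labels as C65BL6) or KO, and were kept without stimulus or treated with LPS at 100 ng/mL, for 30 min or for 8 h. NOS1 is the KO gene in the series' design text, but its title concerns SOCS1; no label settles which gene was disrupted, so KO is used as a label only. Each antibody, genotype and treatment has 1 library, with a matched IgG library as background, so nothing below has a replicate check, no difference between groups was tested, and intervals cover counting error alone.

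SOCS1 is a feedback inhibitor of cytokine signalling: it binds JAK kinases and receptors and, through its SOCS box, joins Elongin B and C in a ubiquitin ligase. It has no known DNA-binding domain, and p65 (RELA) is one of the nuclear proteins it has been reported to bind. p65 is the NF-κB subunit that enters the nucleus within minutes of TLR4 stimulation and binds the enhancers and promoters of inflammatory genes.

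Shown first are 4 promoter runs with at least 50 bases covered by a site of high score or, for Gm52285, by a site called in all 4 SOCS1 LPS lists. These are not the strongest 4 sites, since those at Hnrnpa2b1 (score 40.5) and U2af2 (36) covered no promoter window. The Gm36198 run, with 83 covered bases, is not printed. Each run is the 250 bases before the RefSeq start of the named gene (GRCm38.p6, the same assembly as mm10), read 5′ to 3′ on the gene's strand, with the bases covered by the SOCS1 peak in capitals. The Gsk3a run spans chr7:25237852-25238101 on the minus strand, Gm52285 chr17:23803773-23804022 minus, H2ac6 chr13:23683960-23684209 minus and Mid1ip1 chrX:10717115-10717364 plus.
Gsk3a: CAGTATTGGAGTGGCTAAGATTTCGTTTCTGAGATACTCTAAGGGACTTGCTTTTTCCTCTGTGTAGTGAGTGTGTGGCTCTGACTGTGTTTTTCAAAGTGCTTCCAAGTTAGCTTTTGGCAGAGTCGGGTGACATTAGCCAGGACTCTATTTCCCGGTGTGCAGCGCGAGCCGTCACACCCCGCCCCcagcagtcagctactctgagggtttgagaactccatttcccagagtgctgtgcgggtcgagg
Gm52285: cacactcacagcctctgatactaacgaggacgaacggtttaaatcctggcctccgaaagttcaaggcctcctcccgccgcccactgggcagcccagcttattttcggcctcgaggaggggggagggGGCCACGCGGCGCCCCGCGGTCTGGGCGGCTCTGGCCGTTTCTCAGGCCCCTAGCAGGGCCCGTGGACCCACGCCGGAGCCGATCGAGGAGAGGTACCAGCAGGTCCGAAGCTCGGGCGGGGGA
H2ac6: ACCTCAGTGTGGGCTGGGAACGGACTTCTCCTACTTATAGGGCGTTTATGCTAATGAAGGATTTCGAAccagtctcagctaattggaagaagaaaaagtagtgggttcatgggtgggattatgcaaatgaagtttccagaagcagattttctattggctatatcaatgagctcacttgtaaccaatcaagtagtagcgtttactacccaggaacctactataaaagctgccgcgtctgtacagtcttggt
Mid1ip1: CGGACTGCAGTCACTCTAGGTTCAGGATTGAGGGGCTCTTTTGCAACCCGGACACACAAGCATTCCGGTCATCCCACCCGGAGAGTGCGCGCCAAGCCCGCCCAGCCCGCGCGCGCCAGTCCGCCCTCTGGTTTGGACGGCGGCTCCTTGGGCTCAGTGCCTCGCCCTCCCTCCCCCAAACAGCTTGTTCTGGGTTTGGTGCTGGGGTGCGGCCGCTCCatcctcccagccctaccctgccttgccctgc

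These 4 sequences are unlike one another. The Gm52285 and Mid1ip1 runs are rich in G and C (67.6% and 66.8%) with 23 and 17 CpG dinucleotides. The H2ac6 run is 43.2% G and C with 6 CpG, and Gsk3a lies between, at 52.0% with 9. The covered part holds a GC box (GGGCGG, on either strand) in all but H2ac6. Gsk3a also holds CCAAT there.

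The highest score among the 431 sites was at Gsk3a, which encodes glycogen synthase kinase 3 alpha. The peak, chr7:25237914-25238140, is centred 176 bp upstream of the start, and Erf, an ETS-family repressor gene, also has an end within 10 kb. Scores are the authors' peak-caller values in tags, without scaling to depth. The peak scored 59 in the WT LPS 30 min list, 50 at KO 30 min and 46.5 at KO 8 h. It was not called at WT 8 h. All 4 LPS lists of p65 had a peak close by, with scores of 83.5 at WT 30 min (87 bp away), 113.5 at KO 30 min (96 bp), 58.5 at WT 8 h (98 bp) and 63.5 at KO 8 h (590 bp). A SOCS1 peak of a control list lay 100 bp away. The WT 30 min peak of the strongest site thus had p65 and control SOCS1 peaks beside it that did not reach it. The wider KO 30 min SOCS1 peak that admitted the site did overlap a p65 peak.

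A neighbouring p65 peak was present for most of the sites. One of some list lay within 1 kb of 323 of the 431 (74.9%, exact Clopper-Pearson 95% interval 70.6 to 79) and within 5 kb of 413 (95.8%). The median gap to the nearest p65 peak was 242 bp. Over the whole WT LPS 30 min list the shares were 84.2% within 1 kb and 91.3% within 5 kb. Those count the 72.3% of the list that overlapped p65. An LPS-treated p65 list supplied a peak within 1 kb for 308 sites (71.5%), and 3 or more p65 lists did so for 204 (47.3%). The name of these sites, never called for p65, is therefore true of overlap and not of neighbourhood: 108 had no p65 peak within 1 kb and 18 had none within 5 kb.

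For comparison, 4473 other SOCS1 peaks of the WT LPS 30 min list also had no control peak and no p65 overlap. These other new peaks were in neither second list of the rule, that is KO 30 min or WT 8 h. Of these, 36.5% had a p65 peak within 1 kb and 62.7% within 5 kb, with a median gap of 2388 bp. A further set, the 237 SOCS1 peaks of untreated WT cells that were also called in untreated KO cells and overlapped no p65 peak (the basal sites without p65), was close to the 431 sites, with 69.2% within 1 kb and 92.4% within 5 kb. The p65 peaks beside the 431 sites were compared with their own whole lists only, and those of the LPS lists scored higher. The 223 nearest peaks of the p65 WT LPS 30 min list that lay within 1 kb had a median score of 40 against 25.5 for the whole list, and 80.7% of them were above that list median. The corresponding medians were 48 against 32 at KO 30 min, 25 against 20 at WT 8 h and 43.25 against 29 at KO 8 h. Beside the untreated lists the difference was small, 13 against 12 in WT and 12 against 11 in KO. Scores of p65 peaks beside the other SOCS1 peak sets were not taken. Strong neighbours may therefore not be particular to the 431 sites.

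**Figure D1:**
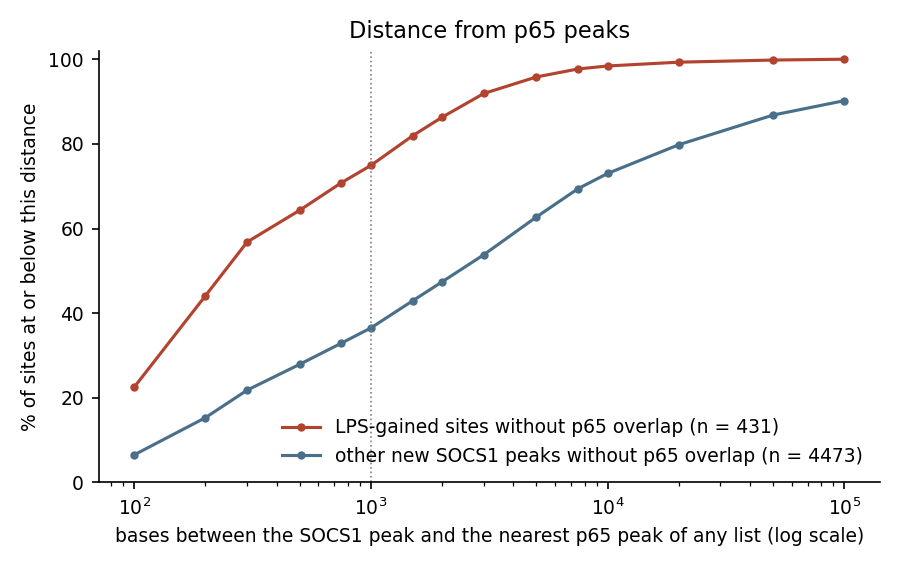
Share of sites (vertical axis, %) whose nearest p65 peak of any of the 6 lists lies within a given number of bases (horizontal axis, log scale), for the 431 sites and for the 4473 new SOCS1 peaks without p65 overlap that were in no second list. The dotted line marks 1 kb, where the curves stand at 74.9% and 36.5%.

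The peak caller bears on this. Per the file headers, findPeaks lists peaks of one library at least a set distance apart, 444 to 986 bp in the p65 lists. For 258 sites (59.9%) the site's centre was closer to a p65 peak of at least 1 list than that list's own spacing. A further p65 peak with the same centre as the site could not have been listed beside that peak in that list. One centred on the far side of the site could still have been listed and overlapped it. For how many sites every overlap was shut out was not counted. The limit on peaks with the same centre applies to that list only, and in single p65 lists it held for 9.28% to 28.8% of the sites. The share for at least 1 list was 24.3% among the 4473 other peaks. Peak width matters too, since WT LPS 30 min SOCS1 peaks are 227 bp wide and KO 30 min ones 397 bp. The KO 30 min or WT 8 h SOCS1 peak that admitted a site was itself compared with p65. For 119 sites (27.6%) such a partner did overlap a p65 peak. They include the sites at Gsk3a, Ptges, H2bc4, B3galt4, Mid1ip1, Ets2, Atad3a, Csf2, Lims1 and Brpf1 and the one inside Foxp1. Of the 322 partners at KO 30 min, 21.7% overlapped a p65 peak of the same genotype and time, against 60.1% of that whole SOCS1 list. For the 145 partners at WT 8 h the figures were 4.14% against 66.2%. Partners overlap sites that were chosen for having no p65 overlap, so lower shares follow largely from the rule. Nothing is read from them. What part peak spacing and width had in selecting these sites was not tested.

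The edges of the rule show how fine it is. The peak near Lims1, a focal adhesion adaptor gene, directly abuts a p65 KO 30 min peak of score 58.5, with no base between them. A peak at chr11:117077345-117077571 likewise abuts a p65 KO 8 h peak of score 26, and the peak in Brpf1, a chromatin reader gene, is 1 bp from a KO 8 h peak of score 67.5. Just outside, a gained site at chr14:61861506-61861732 overlapped a p65 peak by 1 bp, one at chr15:50703895-50704121 by 2 bp and one at Hltf, a DNA translocase gene, by 2 bp. Of the 3918 gained sites with p65, 52 overlapped by less than 50 bp, and 507 (12.9%) overlapped a peak of only 1 p65 list.

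Nearby SOCS1 peaks were common as well. A control SOCS1 peak lay within 1 kb of 172 sites (39.9%, 35.2 to 44.7) without overlapping. This was 32.9% for the 3918 gained sites with p65 and 18.9% for the 4473 other new peaks. Within the WT LPS 30 min list itself, 87 sites (20.2%, 16.5 to 24.3) had a stronger SOCS1 peak centred within 1500 bp, against 8.12% of gained sites with p65 and 9.20% of the whole list. For 76 of those 87 the stronger peak overlapped p65.

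Scores, which are given as a description because they chose the sites, were modest. In the WT LPS 30 min list the sites ran from 8, the lowest score of that list, to 59, with a median of 12 against 13 for the list. The 322 sites called at KO 30 min (74.7%, where 37.0% of the whole WT 30 min list was called) had a median of 14.5. The 145 called at WT 8 h (33.6%, list background 27.1%) had a median of 14. Scores are not compared between lists, since depth and peak width differ (227 and 261 bp in the WT lists, 397 and 375 bp in the KO lists, at 30 min and 8 h). Nothing is read from these shares either, since the rule required one or the other: 286 sites were in the KO 30 min list alone, 109 in the WT 8 h list alone and 36 in both. By the same rule no site overlapped a control peak, where 16.2% and 27.5% of the list overlapped the WT and KO control peaks, or a p65 peak, where 72.3% did.

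**Figure D2:**
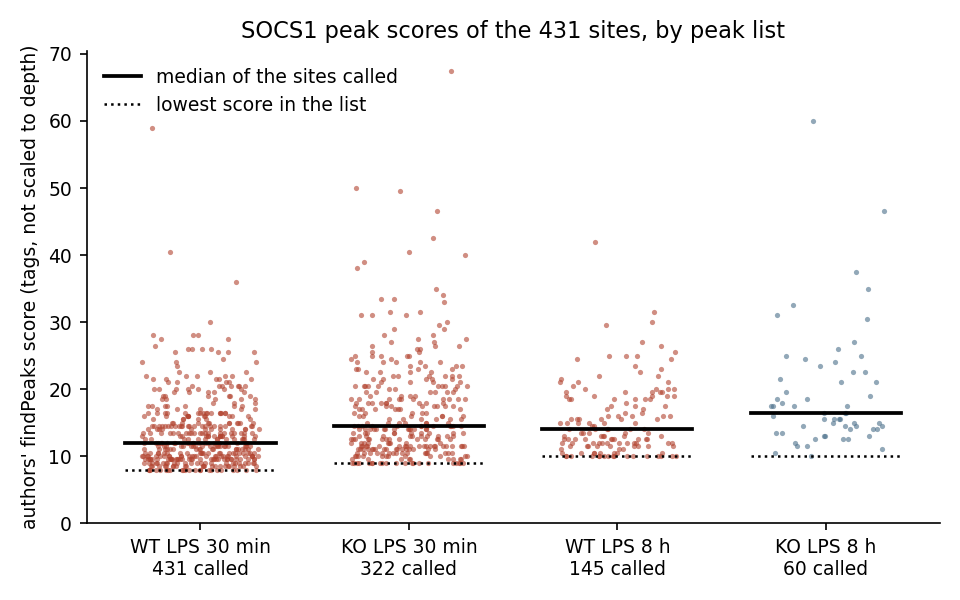
Authors' SOCS1 peak scores (vertical axis, in tags, not scaled to depth) of the 431 sites in each LPS list in which they were called. Each point is a site, the bar the median and the dotted line the lowest score of the list. Medians are 12, 14.5, 14 and 16.5, and the lowest scores of the lists are 8, 9, 10 and 10.

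The 431 sites stood out less from their surroundings than gained sites with p65 did. For the 431 sites the authors' fold over the local 10000 bp had a median of 6.73, against 10.85 for gained sites with p65 and 10.42 for the whole list. It was 7.41 for the basal sites without p65 and 8.95 for the 4473 other new peaks. It was below 8 in 66.4% of the sites, 57.8% of the basal sites without p65, 43.8% of the other new peaks and 28.7% of the gained sites with p65. In the score groups 8 to 10, 10.5 to 13, 13.5 to 20 and 20.5 upwards the median was 6.73, 6.8, 6.55 and 7.09 for the sites. For gained sites with p65 it was 8.53, 9.63, 10.93 and 14.4. The other new peaks had a median score of 9, and their fold was above that of gained sites with p65 scoring 8 to 10. Basal sites come from another list, with peaks 343 bp wide. Fold over IgG had a median of 13.24 for the 431 sites against 11.1 for gained sites with p65. However, IgG tags were at the authors' floor of 0.5 in 38.5% of the 431 sites and 24.5% of gained sites with p65. Many of these ratios thus rest on the floor.

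The KO LPS 8 h list is the SOCS1 readout the rule did not use. It held 60 of the 431 sites (13.9%, 10.8 to 17.6), where 27.7% of the whole WT 30 min list was called. Gained sites with p65 were called there in 38.0% of cases (36.5 to 39.5), and the 4473 other new peaks in 2.68%. The 237 basal sites without p65 had a share like that of the 431 sites, 14.8% (10.5 to 19.9). The share of the 431 sites was also counted by score. In the score groups 8 to 10, 10.5 to 13, 13.5 to 20 and 20.5 upwards it was 12%, 11.5%, 17.4% and 14.9%, while gained sites with p65 went from 24.1% through 31.0% and 39.8% to 48.5%. The intervals of the 2 sets do not overlap in any of the 4 groups. Peaks of the KO 8 h list were also listed at least 750 bp apart. Of that whole list, 56.2% overlapped a p65 peak of the same genotype and time. The 431 sites were chosen for having no p65 overlap, so a lower share can follow from the rule. What part the rule or the spacing had in these shares was not tested.

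**Figure D3:**
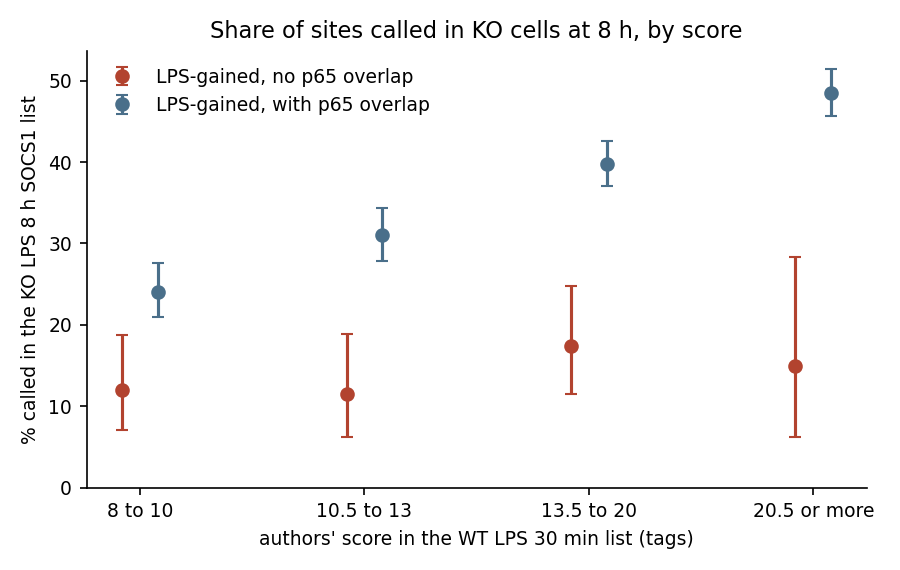
Share of sites (vertical axis, %) overlapping a SOCS1 KO LPS 8 h peak, by the authors' score in the WT LPS 30 min list, for the 431 sites without p65 overlap and the 3918 with it. Bars are exact 95% intervals for counting error; the p65-overlapping sites go from 24.1% to 48.5% and the others stay between 11.5% and 17.4%.

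The same order appeared when the sets were divided in other ways. With KO 30 min as the only second list, 11.9% of the sites and 30% of gained sites with p65 were called at KO 8 h. With WT 8 h as the only second list the shares were 15.6% and 34.1%, and with both, 25% (9 of 36) and 54.6%. At a local fold of 8 or more they were 12.4% and 41.0%, and below 8 they were 14.7% and 30.6%. Among the 312 sites whose partner peaks met no p65 peak, 36 were called at KO 8 h (11.5%, 8.21 to 15.6). By distance, the share was 15.8% of the 323 sites with p65 within 1 kb, 10.0% of the 90 with p65 at 1 to 5 kb, and 0 of the 18 farther away, which allows up to 18.5%.

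Sites called in all 4 SOCS1 LPS lists numbered 9. The strongest, chr17:23803670-23803896, lies inside Srrm2, a splicing scaffold gene, at the start of the long non-coding RNA gene Gm52285, whose upstream run is printed above. Its scores were 30 at WT 30 min, 67.5 at KO 30 min, 30 at WT 8 h and 60 at KO 8 h. The authors' signal there, in tags per 10000000, was 40, 154.8, 47.8 and 99.7. Signal and score are separate counts, and the KO peaks are the wider ones. The nearest p65 peak was 672 bp away.

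Of the other sites in all 4 lists, 3 have a protein-coding gene end within 10 kb. The peak in Dr1, which encodes a repressor of TBP-dependent transcription, is centred 468 bp after the start and scored 15.5, 19, 15.5 and 22.5 in the same order of lists. The peak downstream of the transcription factor gene Ets2 scored 12.5, 20.5, 15.5 and 18. The peak in Atad3a, which encodes a mitochondrial ATPase, scored 16.5, 14.5, 11.5 and 15.5. The signal in tags per 10000000 was 18, 35.7, 14.7 and 31.5 at Dr1. It was 15.4, 28.6, 17.3 and 25.1 at Ets2 and 27.2, 31.8, 15.8 and 19.3 at Atad3a. All 3 had a p65 peak within 200 bp, at gaps of 148, 80 and 179 bp. A further site, inside Foxp1 and 917 bp after a RefSeq start of that forkhead repressor gene, scored 12.5, 31, 21.5 and 23.5 with a p65 peak 35 bp away.

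By distance from gene starts the sites were close to the rest of the list. A RefSeq start lay within 1 kb of the centre for 133 of 417 sites (31.9%, 27.4 to 36.6); the 14 sites on chromosome 18 could not be placed, since the promoter table used has no windows there. The share was 27.9% for gained sites with p65, 28% for the whole list, both inside that interval, and 12.4% for the other new peaks. The share was higher among stronger sites: 25.6%, 25.7%, 37.2% and 47.8% from the lowest to the highest score group, against 22.3%, 25.3%, 29.4% and 31.1% for gained sites with p65. The intervals of the 2 sets overlap in every group, in the highest by little (32.9 to 63 against 28.5 to 33.9). The share also differed with distance from p65, at 36.4% of sites with a p65 peak within 1 kb, 16.1% of those with one at 1 to 5 kb and 29.4% (5 of 17, 10.3 to 56) of those with none within 5 kb, so it followed no steady order.

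Around the start the peaks were not spread evenly. Of the 133, 90 were centred downstream and 43 upstream, with a median of 177 bp downstream, and 59 lay within 250 bp. The sides were not counted for gained sites with p65 or for the whole list. Whether this position is particular to these sites is therefore not known. Measured by either end of a protein-coding gene, 135 of 431 sites (31.3%, 27 to 35.9) were within 1 kb, against 27.2% of gained sites with p65. The centre was inside a protein-coding gene for 64.5% of the sites (59.8 to 69) and 56.9% of gained sites with p65 (55.3 to 58.5), and outside genes with no end within 10 kb for 17.2% and 22.4%. Exons and introns could not be told apart with the gene table used.

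**Figure D4:**
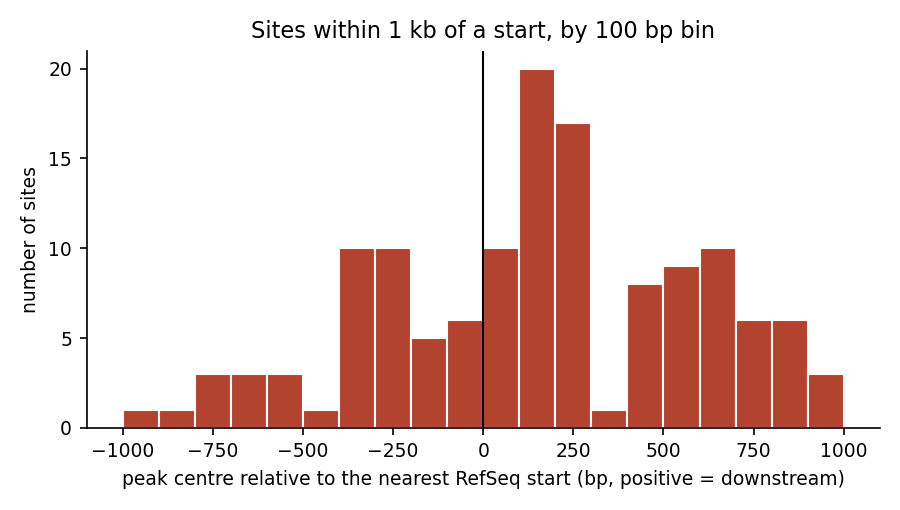
Number of sites (vertical axis) by position of the peak centre relative to the nearest RefSeq start (horizontal axis, bp, positive values downstream), in 100 bp bins, for the 133 sites within 1 kb of a start. The fullest bins are between 100 and 300 bp downstream, and 90 of the 133 sites lie after the start.

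Among the 20 highest-scoring sites with a protein-coding gene end within 10 kb, the next after Gsk3a were at Hnrnpa2b1 and U2af2. Hnrnpa2b1, which encodes a splicing and RNA transport factor and shares its start region with the heterochromatin protein gene Cbx3, had a peak at chr6:51469553-51469779 that scored 40.5 at WT 30 min and 42 at WT 8 h and was in neither KO list. U2af2, the large subunit of the splice acceptor factor U2AF, scored 36 at WT 30 min, 25 at KO 30 min and 25 at WT 8 h.

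Osm, Ptges and Nfe2l2 were among these 20 as well. Osm encodes oncostatin M, an IL-6 family cytokine made by activated macrophages, and the site 3719 bp from its end scored 27.5 at WT 30 min and 19.5 at WT 8 h. Strong p65 peaks stood 196 to 218 bp from it, with scores of 55.5 at WT 30 min, 95.5 at KO 30 min and 34 at WT 8 h. Ptges, the inducible prostaglandin E synthase gene, scored 28 and then 49.5 at KO 30 min; a p65 peak of the KO control list was 18 bp away. Nfe2l2 encodes NRF2, the regulator of antioxidant genes, and scored 26 and then 46.5 at KO 30 min, with its nearest p65 peak 708 bp away. Neither Ptges nor Nfe2l2 was called in an 8 h list.

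The remaining strong sites belong to genes of varied function. The histone genes H2bc4 and H2ac6 share a peak that scored 26, 33.5 at KO 30 min and 10 at WT 8 h. Slc7a1, a cationic amino acid transporter gene, scored 25.5 and then 10 at WT 8 h. Tomm34, a mitochondrial import gene, scored 25.5 and 21 at KO 30 min, with no p65 peak closer than 3003 bp. Mid1ip1, a regulator of fatty acid synthesis, scored 22 and 33 at KO 30 min, with its printed promoter covered over 219 bases. Others among the 20 were Zfp608, Tcp11l2, B3galt4, Anxa2, Amdhd2, 2610001J05Rik, Arl4d, Unc13b and Nabp1, with WT 30 min scores of 28, 26.5, 25.5, 24, 23.5, 22.5, 22, 22 and 22.

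Far from p65, the sites were few and mostly weak. The 18 with no p65 peak within 5 kb had a median score of 9.75. The strongest was at the start of Amdhd2, an amino sugar deacetylase gene with the proton pump gene Atp6v0c and the kinase gene Pdpk1 within 10 kb: it scored 23.5 at WT 30 min, 23.5 at KO 30 min and 21 at WT 8 h, and its nearest p65 peak was 7834 bp away. A site inside Cybb, the gene of the phagocyte NADPH oxidase subunit gp91phox, scored 15.5, 18.5 and 15.5 in the same 3 lists, at 11849 bp from p65 but 187 bp from a control SOCS1 peak. Bcl2l11, which encodes the pro-apoptotic protein BIM, scored 12 and 18.5 at KO 30 min, and Hes1, a Notch target gene, scored 8.5 and 14 there. p65 was 25962 and 25407 bp away from these last sites.

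In all, 386 of 21887 protein-coding genes (1.76%) had an end within 10 kb of a site. Among the 479 genes of the 24 gene lists that were found in the gene table, 20 did (4.18%). These lists are of genes active in macrophages for the most part, and SOCS1 peaks of any kind are frequent there: 94.1% of the NF-κB genes and 95.8% of the immediate-early genes had a WT LPS 30 min SOCS1 peak, against 43.9% of all genes.

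The counts in the inflammatory lists were 2 or fewer genes each. Of 17 genes of NF-κB subunits and inhibitors only Nfkbiz, which encodes the nuclear inhibitor IκBζ, had one, with a score of 9 at WT 30 min and 13.5 at KO 30 min, while 6 had a gained site with p65, which 2905 of all 21887 genes had (13.3%). Of 20 inflammatory cytokines it was Osm and Csf2 (GM-CSF), the latter at 11 and 18.5 with a p65 peak 12 bp away. None of 18 chemokine genes, 25 TLR4 signalling genes or 24 immediate-early genes had a site, where 9, 7 and 11 had a gained site with p65. Rsad2, the antiviral gene of viperin, was the only one of 28 interferon-stimulated genes, at 11.5 and 14.5 with p65 2835 bp away. At the 1.76% of all genes, a list of this size would hold less than 1 gene, so nothing is read from the zeros.

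Among the genes of SOCS1's own pathway, 2 of 31 JAK-STAT and SOCS family genes had a site. The one near Socs3, the sister feedback inhibitor, scored 10.5 at WT 30 min and 22.5 at WT 8 h and lies closer to Pgs1. The one near Jak3, the kinase of common gamma chain receptors, scored 9.5, then 15 at KO 30 min and 14.5 at KO 8 h, and lies closer to Unc13a. Of 13 ubiquitin ligase partner genes of SOCS1, Eloc, which encodes Elongin C, had a site that scored 15.5, 21.5 at KO 30 min and 22 at WT 8 h.

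Among macrophage identity genes, 3 of 20 had a site. Cebpb, a transcription factor gene induced by LPS, had a peak centred 3 bp from a gene end that scored 16.5 and then 28 at KO 30 min. Itgam, the CD11b gene, scored 8.5 and then 11 at WT 8 h. Ep300, which encodes a writer of histone acetylation, scored 11 and then 12 at WT 8 h. The ribosomal protein genes Rps6 and Rps18, the cell cycle gene Ccnd2, the lysosomal protease gene Ctsd and the pro-apoptotic gene Bax also had a site, as did Hnrnpa2b1 and U2af2. No gene of the neutrophil, lymphocyte, dendritic cell or neuronal and hepatic marker lists had a site, nor any of the heat shock, glycolysis, antigen presentation or housekeeping lists.

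Promoter windows from 250 bases before to 50 bases after a RefSeq start were covered by 55 of 417 sites (13.2%), each by at least 1 base and with a median overlap of 83 bp; 47 belong to protein-coding genes. These windows had a median of 62.0% G and C and 23 CpG, against 60.3% and 21 for the 565 windows covered by gained sites with p65 and 52.7% and 7 for all 32817. At least 15 CpG were present in 70.9% of them, 72.2% of those with p65 and 34.6% of all. The 2778 windows covered by any peak of the WT LPS 30 min list had 60.7%, 21 CpG and 72.4%, so this composition is that of the whole list.

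Motif letters were counted on both strands. A 10-letter NF-κB consensus was in 7.27% of the 55 windows (4 windows, 2.02 to 17.6), in 7.08% of those with p65 and in 4.50% of all promoters. The E-box CACGTG was in 16.4%, 10.8% and 7.15%, the GC box GGGCGG in 69.1%, 64.4% and 35.6%, and the ETS motif CCGGAAG in 18.2%, 23.0% and 8.86%. Among the 11356 promoters with at least 15 CpG these 3 motifs were in 11.3%, 76.8% and 18.9%, and among the windows of the whole SOCS1 list in 12.4%, 63.9% and 19.8%, all within the intervals of the 55 windows. The PU.1 motif GAGGAAG, which shares the letters GGAAG with the ETS motif, was in 1 of 55 (1.82%, 0.046 to 9.72), in 16.1% of windows with p65, in 14.8% of those of the whole list, in 11.9% of CpG-rich promoters and in 13.6% of all promoters. Its interval lies below the 13.2 to 19.4 of the windows with p65, for counting error alone and as one of 12 motifs searched. The interferon-stimulated response element was in 5.46%, 2.83% and 3.43%, the window of Rsad2 among them, and the gamma-activated site TTCNNNGAA in 5.46%, 6.20% and 8.29%. A match in a window is a match of letters and was not tied to the covered bases.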

How the data were processed

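Peak lists of 12 CUT&RUN libraries (p65 and SOCS1, 1 library per group) were used; 6 IgG libraries entered only through the authors' calls, and 2 libraries labelled internal control were left out. Reads were trimmed with cutadapt, aligned to mm10 with Bowtie2 2.4.1 and peaks called with HOMER 4.11, per the submitters' processing notes. Per the file headers, findPeaks ran in factor mode on each library with an FDR of 0.001, at least 4-fold over IgG and over the local 10000 bp, and a Poisson p of 0.0001. In the deposited lists the signal is tags per 10000000, the score is tags in the peak without depth scaling, the IgG value is an expected count of at least 0.5, each ratio is a fold over IgG, local or clonal background, the p-value is the authors' unadjusted Poisson p, and the fraction is the focus ratio. Whether antibody or IgG tags were scaled to the other differed between lists. Depth was 6.93 to 9.74 M tags for SOCS1 and 7.69 to 18.4 M for p65. Lists end at scores of 7 to 12, so that weaker binding at a site could not be called.

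Overlap needed 1 bp. Genes were linked where either end lay within 10 kb of a peak centre (RefSeq, GRCm38.p6), and starts came from RefSeq promoter windows. Shares carry exact Clopper-Pearson 95% intervals (SciPy 1.17.1). Overlap counting was tested on simulated data. Genes were named by rule: the 20 highest-scoring sites with a coding gene end within 10 kb, up to 4 per gene list, up to 10 sites called in all 4 SOCS1 LPS lists, and the 3 sites on each side of the p65 limit. Other named genes, such as the sites far from p65 and Foxp1, were chosen after their values were seen. The sites and gene lists were chosen with earlier results of these data known. Values for some of the genes the rule names are not reported here.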

Additional observations from a re-analysis of the deposited data

How the results depend on the processing

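No paired analysis was possible because each group has 1 library; for the same reason no library could be left out. The count of 431 sites became 108 without any p65 peak within 1 kb, 36 when both second lists were required, 145 at a local fold of at least 8 and 185 with a score above the list median. It was 18 with no p65 peak within 5 kb and 259 with no SOCS1 control peak within 1 kb, 2 limits added after seeing the data. The share called at KO 8 h was 8.33% without p65 within 1 kb, 25% with both second lists and 0.0% without p65 within 5 kb, against 13.9%. The share within 1 kb of a gene end, 31.3%, was 16.7%, 36.1% and 22.2% under those limits, 38.9% with a score above the median, 25.1% without a control peak within 1 kb and 22.0% for ends within 500 bp. A gene end lay within 5 kb of 51.5% of sites and within 10 kb of 60.3%. Every other share under these limits stayed within its interval. So did all shares under 4 further alternatives, where the count of 484 to 586 was within 1.5 times of the main one. These were overlap of at least 0.5 of the shorter peak, excluding the WT control list alone, and leaving out the p65 KO 30 min or KO 8 h list, the last 2 added after seeing the data.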

Other observations

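Small nuclear RNA genes, which encode the RNA parts of the spliceosome, lay within 1 kb of 4 of the 431 sites (0.928%, exact 95% interval 0.253 to 2.36), among them Rnu2-10 and Rnu5g, against 0.306% of gained sites with p65 and 0.260% of the whole list. These genes have near-identical copies, and how the authors treated reads that map to several places is not given in the sources used here, so the positions are uncertain. Long non-coding RNA genes lay within 1 kb of 36 sites (8.35%), against 6.97% and 7.03%, and pseudogenes within 1 kb of none (0 of 431, which allows 0.852%), against 0.485% and 0.622%.

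The sites were scattered over the genome. No chromosome held more than 40, no gene was linked to more than 2, and 6 pairs of neighbours had centres within 10 kb. The closest pair, chr6:134791544-134791770 and chr6:134792384-134792610 inside the phosphatase gene Dusp16, had centres 840 bp apart and scored 19 and 15.5 at WT 30 min.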
